A study of Rattus norvegicus with 12 samples.

Results

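The collagens are a large family of extracellular matrix proteins, and their mRNAs were followed here through a cell line of vascular smooth muscle. The members were all genes of the deposited count table whose symbol consists of Col, a number, the letter a and a number, which gave 44 of 33294 genes. Of these, 11 code for chains of fibrillar collagens, 6 for the type IV chains of basement membranes and 27 for chains of other classes. Rat PAC1 cells, a smooth muscle line from the pulmonary artery, were sequenced as 12 poly(A) libraries in 4 groups of 3. In the D1 group, PAC1-D cells, which are kept differentiated by splitting them 1:10 once a week, received control siRNA. In the P group, PAC1-P cells, which are kept proliferative by splitting them 1:20 at shorter intervals, received the same control siRNA. The RBPMS KD1 group held PAC1-D cells treated with siRNA against Rbpms, and the MBNL KD group held PAC1-D cells treated with siRNAs against Mbnl1 and Mbnl2. Rbpms, Mbnl1 and Mbnl2 code for RNA-binding proteins that regulate splicing. All 12 libraries thus came from siRNA-treated cells of 1 line, with 90 pmol siRNA given again after 24 h and cells taken 48 h later per the labels, while the study's methods state a longer schedule.

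Collagens are built as trimers of chains that wind into a triple helix in the endoplasmic reticulum. Fibrillar collagens (types I, II, III, V, XI, XXIV and XXVII) assemble into the fibrils that carry tension in the arterial wall. Type IV collagen forms the sheet-like network of the basement membrane that surrounds each contractile smooth muscle cell. Fibril-associated collagens sit on the surface of fibrils, type VI forms beaded microfilaments near the cell, and the short-chain types VIII and X form hexagonal networks. Smooth muscle cells that leave the contractile state are known for changing the matrix that they make.

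Library totals ran from 80842635 to 90771289 counts, so that a count of 3, used as the limit of detection, stood for 0.0319 to 0.037 CPM. CPM values, counts scaled to a common library size, were set by the trimmed mean of M values (TMM) over all 12 libraries and are not divided by gene length, so that they compare libraries and not genes. The targeted mRNAs were low in the libraries labelled as knockdowns. Rbpms lay at 24.7% to 25.5% of its D1 mean in RBPMS KD1, and Mbnl1 and Mbnl2 lay at 23.6% to 24.1% and 29.1% to 30.1% in MBNL KD. The 8 smooth muscle markers summed to 9855 to 10364 CPM in D1, 217 to 230 in P, 4932 to 5110 in RBPMS KD1 and 7836 to 7955 in MBNL KD. Acta2 and Tagln held most of the D1 sum, with means of 5033 and 3243 CPM. By adjusted p, as defined below, all 8 fell in P and in RBPMS KD1. In MBNL KD 6 fell and 2 rose, and none was called changed. Endothelial markers (5 genes) stayed under 7 CPM and leukocyte markers (4 genes) under 1.6 CPM in summed level in every library, and the epithelial markers (5 genes), nearly all of it Krt8, summed to 35.5 to 83.3 CPM.

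Collagen mRNAs took a large part of every library. They made up 5.61%, 5.76% and 5.66% of all counts in D1 and 4.28%, 4.25% and 4.49% in P. In the knockdowns they made up 7.0%, 6.86% and 6.6% in RBPMS KD1 and 6.06%, 6.01% and 6.05% in MBNL KD. The P libraries were the lowest and the RBPMS KD1 libraries the highest, with no overlap between any of the 4 groups. Within the collagen counts, type IV chains took 5.17% ± 0.0497 in D1 and 1.18% ± 0.0259 in P, 4.33% ± 0.0555 in RBPMS KD1 and 5.05% ± 0.0926 in MBNL KD (SD, n = 3). Fibrillar chains took 86.0% ± 0.209 in D1, 92.3% ± 0.215 in P, 87.4% ± 0.21 in RBPMS KD1 and 86.1% ± 0.137 in MBNL KD. Col1a1, Col1a2 and Col3a1, which code for the chains of types I and III, together held 77.6% ± 0.227 of the collagen counts in D1 and 83.3% ± 0.358 in P. Inside that group the balance differed. The Col3a1 share was 39.1% ± 0.284 in D1 and 20.7% ± 0.812 in P, and the Col1a1 share was 24.5% ± 0.212 in D1 and 46.3% ± 1.47 in P. These shares are descriptions without a test, and they would change if counts were divided by transcript length.

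**Figure D1:**
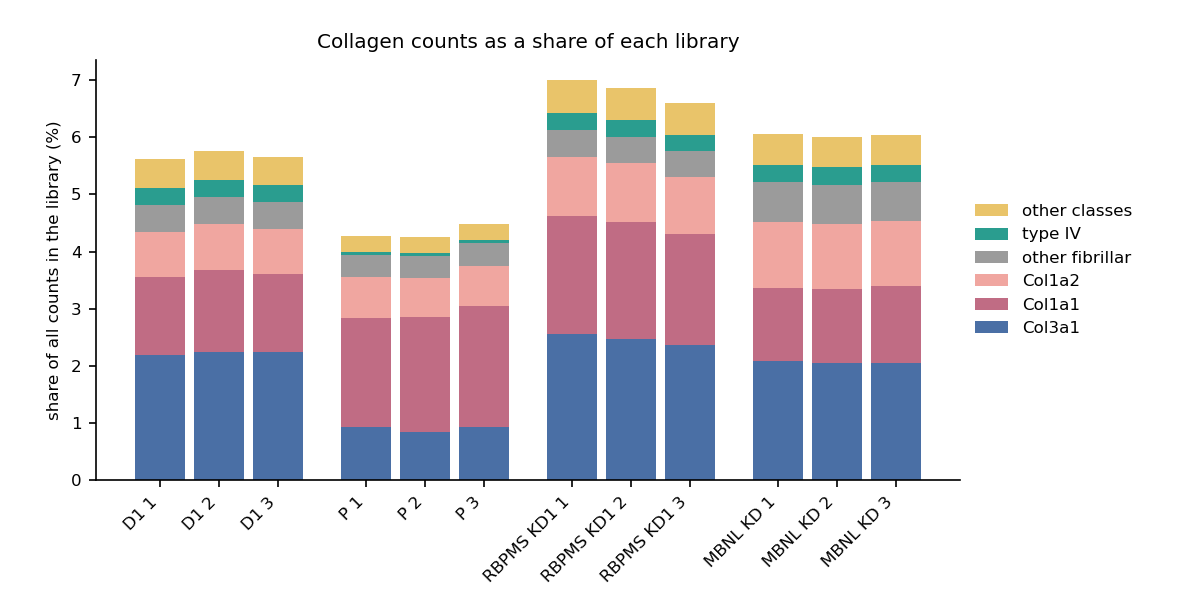
Stacked bars give the share of all counts (%, linear axis from 0) that collagen genes took in each of the 12 libraries, split into Col3a1, Col1a1, Col1a2, other fibrillar, type IV and other collagens. The P bars are the shortest, at 4.25% to 4.49%, with a small Col3a1 part and a type IV part of 0.0502% to 0.0517% of all counts, and the RBPMS KD1 bars are the tallest, at 6.6% to 7.0%.

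Not every collagen gene was read. Col13a1 and Col26a1 had no count in any library, which allows at most 3 counts per library for each if counts are independent. Col9a1 and Col6a4 stayed at or under 3 counts everywhere. The 5 genes Col2a1, Col24a1, Col6a5, Col23a1 and Col28a1 did not pass edgeR's filter on low counts in any comparison. The remaining 35 members were tested in at least 1 comparison and 31 in all 3 comparisons with D1. Genes are said to have risen or fallen where edgeR's quasi-likelihood test gave a Benjamini-Hochberg adjusted p under 0.05 over all genes tested, and are called changed where the log2 fold change was also above 1 in size. Of the 44 members, 23 were called in at least 1 of the 3 comparisons with D1, which share their control libraries. That is 65.7% of the 35 members tested, where 33.6% of the 17310 genes tested in at least 1 of these comparisons were called in at least 1.

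**Figure D2:**
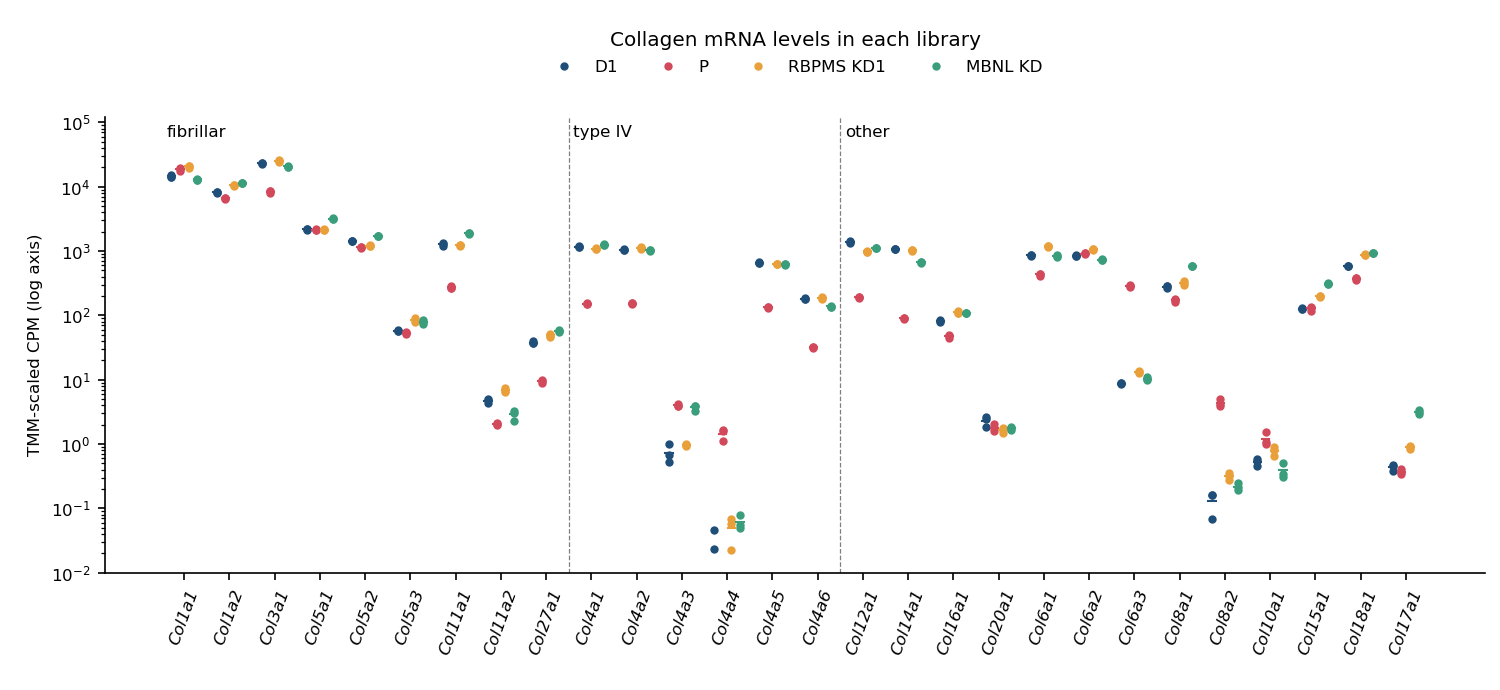
Points give the TMM-scaled CPM (log axis) of each of the 12 libraries for the collagen genes with a group mean of at least 1 CPM, and short lines give group means of 3 libraries; libraries at 0 are not drawn. P libraries lie well below the other groups for Col3a1, Col11a1, Col4a1, Col4a2, Col12a1 and Col14a1, and well above them for Col6a3 (281 to 301 CPM against 8.56 to 13.9), while gene length was not taken into account.

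The comparison of P with D1 asks how collagen mRNAs differ between proliferative and differentiated cells. Proliferative cells had much less mRNA for the major type IV chains, for type III and XI fibril chains and for the fibril-associated collagens XII and XIV, and much more for Col6a3. Of the 35 members tested, 20 were called changed, 8 higher and 12 lower in P. Among all 16814 genes tested, 27.6% were called, 16.4% as higher and 11.2% as lower, so that 59.4% of calls were upward (45.8% with quantile normalization). By adjusted p alone, 10 members rose, 19 fell and 6 did not pass, where 77.9% of all genes passed, 40.4% as higher and 37.6% as lower. The median log2 fold change was -0.33 over the members and 0.02 over all genes. The classes differed in their counts: 4 of 9 fibrillar chains tested were called, all lower, 6 of 6 type IV chains were called, 4 lower and 2 higher, and 10 of 20 other chains were called, 6 higher and 4 lower.

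Among fibrillar chains, Col3a1, whose product forms the homotrimer of type III collagen in the walls of vessels, read 22688, 23475 and 23243 CPM in D1 and 8571, 7880 and 8617 CPM in P. All P libraries lay far below D1, and the P mean was 36.0% of the D1 mean (log2 fold change -1.47, SE 0.027, adjusted p = 5e-31). The type I chains moved less and in opposite directions. Col1a1, the chain present in most copies in type I collagen, read 14242, 14947 and 14362 CPM in D1 and 17733, 18627 and 19796 CPM in P, a rise of 0.36 on the log2 scale (SE 0.028, adjusted p = 2.2e-13). Col1a2, the partner chain, read 8062, 8428 and 8215 CPM in D1 and 6646, 6373 and 6702 CPM in P, and fell by 0.33 on the log2 scale (SE 0.024, adjusted p = 3.5e-14). Neither passed the fold threshold.

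Type V and type XI collagens copolymerize with the major fibril collagens and limit fibril width. Col5a1 did not separate the groups, with 2160, 2223 and 2165 CPM in D1 and 2112, 2102 and 2220 CPM in P (log2 fold change -0.03, 95% interval -0.08 to 0.02, adjusted p = 0.26). Col5a2 fell from 1417 ± 3.96 to 1147 ± 15.9 CPM (log2 fold change -0.31), and Col5a3 from 57.8 ± 1.72 to 53.5 ± 2.22 CPM (log2 fold change -0.12, adjusted p = 0.0025). The Col5a3 fall was lost with limma on the authors' normalised values (-0.09, adjusted p = 0.067). Col11a1 changed on another scale. It read 1218, 1331 and 1265 CPM in D1 and 283, 262 and 270 CPM in P, so that P held 21.3% of the D1 mean (log2 fold change -2.23, SE 0.03, adjusted p = 4.5e-35). Col11a2 fell from 4.71 ± 0.326 to 2.04 ± 0.0693 CPM (log2 fold change -1.21) and Col27a1, a chain known from cartilage, from 37.7 ± 1.42 to 9.46 ± 0.443 CPM (log2 fold change -2.0). Col2a1, the fibril chain of cartilage, had at most 12 counts in any library.

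The values of the leading fibrillar chains depended on the scale. Quantile normalization, which gives every library the same set of values and which the authors used for their normalised table, left Col3a1 lower in P but inside the fold threshold (log2 fold change -0.91). It also turned the sign of Col1a2 (0.42) and of Col5a1 (0.47), and the fall of Col5a2 was lost (0.04, adjusted p = 0.06 by edgeR). In the authors' normalised table the leading collagens took the value of their rank. Col3a1 held rank 1 in all 9 PAC1-D libraries and had the identical value of 1947999 there, so that no difference among D1, RBPMS KD1 and MBNL KD could show, and rank 4 in P with a value of 1143973. Col1a2 held rank 5 in all P, RBPMS KD1 and MBNL KD libraries with the identical value of 864919.

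**Figure D3:**
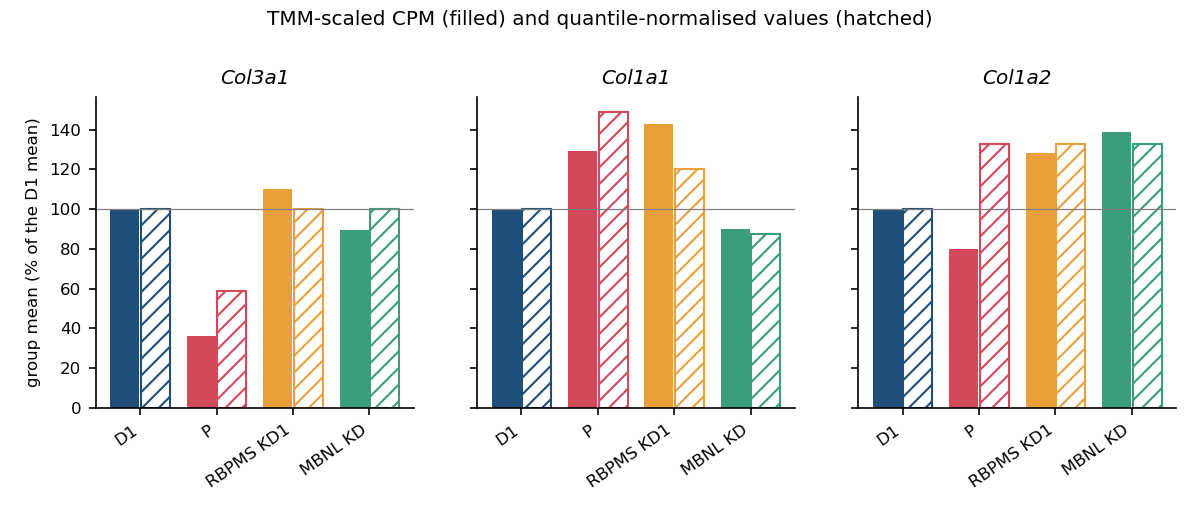
Bars give the group mean as a percentage of the D1 mean (linear axis from 0) for Col3a1, Col1a1 and Col1a2, filled for TMM-scaled CPM and hatched for the authors' quantile-normalised values. For Col1a2 in P the filled bar stands at 79.8% and the hatched bar at 133%, and for Col3a1 the hatched bars of both knockdowns stand at exactly 100%.

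The type IV chains divided by pair. The 6 genes lie as head-to-head pairs that share the region between their starts: Col4a1 with Col4a2, Col4a3 with Col4a4, and Col4a5 with Col4a6. The Col4a1 and Col4a2 chains make up the type IV collagen found in nearly all basement membranes, including those of arteries. In the RefSeq annotation of GRCr8, 76, 412 and 1414 bases separate the annotated starts of the 3 pairs. The sequences that follow are shown because the members of a pair moved in the same direction in P, which was not so of every pair in the knockdowns. They are the whole stretch between the Col4a1 and Col4a2 starts (chr16:84885521-84885596, read along the + strand, which is that of Col4a1) and the 250 bases before the starts of Col4a3 (chr9:91323740-91323989, + strand), Col4a5 (chrX:109907109-109907358, + strand) and Col4a6 (chrX:109905945-109906194, - strand). They come from RefSeq, and capitals mark GGGCGG, the core of the GC box, or its reverse complement CCGCCC.
Col4a1-Col4a2: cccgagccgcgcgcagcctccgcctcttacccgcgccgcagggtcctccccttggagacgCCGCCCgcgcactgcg
Col4a3: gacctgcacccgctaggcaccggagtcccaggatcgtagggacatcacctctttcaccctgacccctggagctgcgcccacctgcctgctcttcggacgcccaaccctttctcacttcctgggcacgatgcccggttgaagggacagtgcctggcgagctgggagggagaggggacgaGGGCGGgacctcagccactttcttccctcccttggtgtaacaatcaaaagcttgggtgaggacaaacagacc
Col4a5: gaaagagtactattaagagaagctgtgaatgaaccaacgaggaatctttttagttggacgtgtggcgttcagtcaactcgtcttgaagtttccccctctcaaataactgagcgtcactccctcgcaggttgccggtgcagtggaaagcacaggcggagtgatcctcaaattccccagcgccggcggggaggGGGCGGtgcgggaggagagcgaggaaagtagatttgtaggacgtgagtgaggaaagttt
Col4a6: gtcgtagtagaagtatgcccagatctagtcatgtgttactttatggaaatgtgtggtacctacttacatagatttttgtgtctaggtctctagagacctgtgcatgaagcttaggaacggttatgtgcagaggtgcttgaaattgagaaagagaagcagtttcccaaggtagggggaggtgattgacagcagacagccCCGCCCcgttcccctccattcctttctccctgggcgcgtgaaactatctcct
In windows of 250 bases before the start, searched on both strands, GGGCGG was found for 5 of the 6 type IV genes (not Col4a4), 19 of the 35 collagen genes with a window and 30.5% of all 33469 windows. A collagen gene was counted if any of its windows matched, while the share of all windows counts each window singly. TATAAA was found for 0 of the 6, 4 of the 35 and 12.9%. CCAAT was found for 2 of the 6, 11 of the 35 and 34.0%, and CANNTG, the E-box, for 3 of the 6, 19 of the 35 and 65.5%. The CArG box, the site type known for smooth muscle promoters, was found for 0 of the 6, 1 of the 35 and 1.5%. The windows of Col4a1 and Col4a2 overlap, as do those of Col4a3 and Col4a4, and are not independent. A match is a stretch of letters and not a measured site.

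Both chains of the first pair fell steeply in P. Col4a1 read 1158, 1207 and 1141 CPM in D1 and 150, 149 and 154 CPM in P, which left 12.9% of the D1 mean (log2 fold change -2.96, SE 0.027, adjusted p = 1e-39). Col4a2 read 1048, 1071 and 1031 CPM in D1 and 154, 149 and 155 CPM in P, which left 14.5% (log2 fold change -2.79, SE 0.026, adjusted p = 1.8e-39). Col4a5 fell from 642, 677 and 661 CPM to 137, 131 and 137 CPM (log2 fold change -2.30, SE 0.027), and Col4a6 from 177, 183 and 181 CPM to 32.1, 31.8 and 31.2 CPM (log2 fold change -2.51, SE 0.029). In each of these 4 genes all P libraries lay far below all D1 libraries. The middle pair, best known from the glomerular basement membrane, went the other way at a much lower level. Col4a3 read 0.528, 1.01 and 0.666 CPM in D1 and 4.15, 3.85 and 3.94 CPM in P (log2 fold change 2.43, SE 0.16, adjusted p = 1.3e-15). Col4a4 had 0, 2 and 4 counts in D1 and 149, 103 and 155 counts in P (log2 fold change 5.88, SE 0.42, adjusted p = 2e-14), a fold that rests on D1 libraries close to the limit of detection.

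Collagens XII, XIV, XVI, XIX, XX and XXII are fibril-associated and link fibrils with other matrix. Col14a1 read 1084, 1088 and 1072 CPM in D1 and 91.6, 90.7 and 87.3 CPM in P, or 8.28% of the D1 mean (log2 fold change -3.59, SE 0.027, adjusted p = 5.1e-42). Col12a1 read 1363, 1433 and 1312 CPM in D1 and 191, 189 and 190 CPM in P, or 13.8% (log2 fold change -2.85, SE 0.028, adjusted p = 9.6e-39). The Col14a1 fall was the largest among the tested members above 1 CPM in D1. Col16a1 fell from 82 ± 3.36 to 47.5 ± 2.84 CPM without passing the fold threshold (log2 fold change -0.79). At low counts, Col19a1 went from 54, 52 and 44 counts in D1 to 4, 0 and 2 in P and was called lower, and Col22a1 from 0, 2 and 4 counts to 50, 34 and 42 and was called higher (log2 fold change 4.20, and 0.87 with limma on the authors' normalised values).

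Type VI collagen is assembled from a Col6a1 chain, a Col6a2 chain and a longer chain, commonly Col6a3. In P, Col6a3 rose steeply, Col6a2 rose slightly and Col6a1 fell. Col6a3 read 8.77, 8.86 and 8.56 CPM in D1 and 281, 289 and 301 CPM in P, a 33.1-fold higher mean (log2 fold change 5.05, SE 0.036, adjusted p = 1.6e-42). Col6a1 read 878, 851 and 865 CPM in D1 and 447, 411 and 439 CPM in P (log2 fold change -1.01, SE 0.027, adjusted p = 1.5e-26), a call that stood just past the fold threshold and was lost without P replicate 2 (-0.97). Col6a2, which is named here after its values were seen, read 854, 836 and 828 CPM in D1 and 927, 884 and 932 CPM in P and rose by 0.12 on the log2 scale (SE 0.024, adjusted p = 4.8e-05). Col6a6, a chain that can take the place of Col6a3, had 5, 5 and 2 counts in D1 and 52, 45 and 36 in P and was called higher (log2 fold change 3.31), a call that was lost with limma on the authors' normalised values (0.82). The 250 bases before the RefSeq starts of Col6a1 (chr20:11905440-11905689, + strand, GRCr8) and Col6a3 (chr9:98886959-98887208, - strand, GRCr8) are shown because these chains share a trimer and differed most in P. They hold 60.0% and 58.4% G and C, and neither holds a TATAAA motif, a match to CCAAT, the GC box core or a CArG box on either strand, so that no letters are in capitals.
Col6a1: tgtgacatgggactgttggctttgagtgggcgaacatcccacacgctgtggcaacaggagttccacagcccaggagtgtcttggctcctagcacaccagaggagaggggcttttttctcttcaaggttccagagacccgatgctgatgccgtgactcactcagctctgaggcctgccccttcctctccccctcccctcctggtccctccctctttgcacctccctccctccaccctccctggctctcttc
Col6a3: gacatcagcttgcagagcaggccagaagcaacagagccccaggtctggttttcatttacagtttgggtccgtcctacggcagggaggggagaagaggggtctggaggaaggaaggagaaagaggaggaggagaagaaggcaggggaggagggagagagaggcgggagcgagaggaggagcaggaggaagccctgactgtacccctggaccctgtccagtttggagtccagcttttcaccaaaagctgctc

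Of the network-forming chains, Col8a1, a product of endothelium and of smooth muscle in injured arteries, fell from 289, 264 and 289 CPM in D1 to 178, 160 and 175 CPM in P (log2 fold change -0.72, SE 0.033). Its partner Col8a2 read 0.0689, 0.163 and 0.161 CPM in D1 and 5.10, 3.97 and 4.15 CPM in P (log2 fold change 5.06, SE 0.21, adjusted p = 6e-21). Col10a1, the collagen of hypertrophic cartilage, read 0.448, 0.592 and 0.539 CPM in D1 and 1.53, 1.08 and 0.994 CPM in P (log2 fold change 1.18, adjusted p = 2.2e-05), and the call was lost without P replicate 1 (0.97). The multiplexins Col15a1 and Col18a1 belong to basement membrane zones and carry fragments that restrain vessel growth. Col15a1 overlapped between the groups, with 125, 130 and 126 CPM in D1 and 137, 119 and 129 CPM in P (log2 fold change 0.01, 95% interval -0.06 to 0.07, adjusted p = 0.87). Col18a1 fell from 581 ± 4.48 to 373 ± 12.5 CPM (log2 fold change -0.65). Col16a1 and Col18a1, like Col6a2, lay outside the rule for named genes and were chosen after their values were seen. Col25a1, a transmembrane collagen, had 0 counts in every D1 library and 10, 22 and 20 counts in P. Against the limit of 3 counts per library it was at least 5.35-fold higher in P. This bound takes counts as independent and is lower if both mates of a pair were counted.

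Markers of other cell types also moved between P and D1. Of the 5 chondrocyte markers, Acan and Sox9 rose and Matn3 fell past both thresholds, and the summed level was 11.6 to 14.0 CPM in D1 and 505 to 534 CPM in P, nearly all of it Acan (1.05 CPM in D1 and 489 CPM in P). Matn1 stayed at or under 3 counts in both groups, and Comp did not pass the test. The 6 fibroblast markers summed to 150 to 161 CPM in D1 and 194 to 203 CPM in P, with Cd34 at or under 3 counts in D1. Most of that sum was Lum (131 CPM in D1 and 164 CPM in P). By adjusted p Lum, Pi16 and Dcn rose and Pdgfra fell (log2 fold change -0.29). Dpt did not pass, and no fibroblast marker was called. The 5 endothelial markers summed to 0.746 to 0.816 CPM in D1 and 5.43 to 6.76 CPM in P, with Cdh5 (1.37 CPM in P), Tek (3.55 CPM in P) and Vwf called higher, and the 5 epithelial markers to 35.5 to 37.3 and 80.3 to 83.3 CPM, nearly all Krt8. Their part in the collagen values was not tested, and in bulk samples fewer cells of a type and less RNA per cell cannot be told apart.

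**Figure D4:**
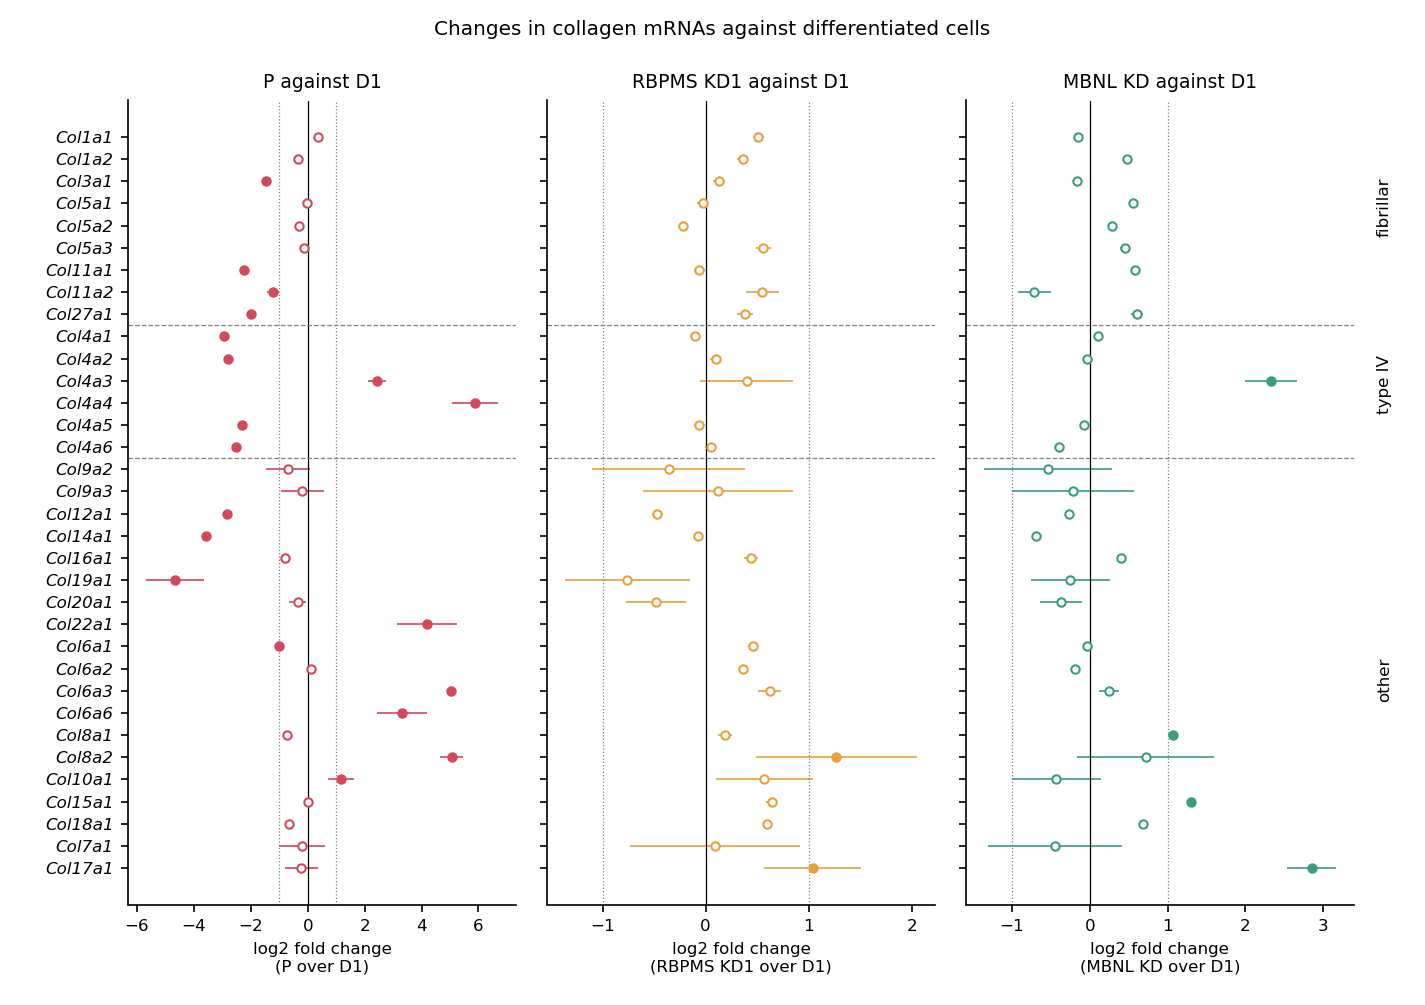
Points give log2 fold changes against D1 with 95% intervals for the tested members, filled where called, in P, RBPMS KD1 and MBNL KD; dotted lines mark the fold threshold, each panel has its own axis range, and Col25a1, without counts in D1, is left out. The P panel spans -4.67 to 5.88, the RBPMS KD1 panel -0.76 to 1.27 and the MBNL KD panel -0.71 to 2.85.

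The comparison of RBPMS KD1 with D1 asks what loss of Rbpms does to collagen mRNAs in differentiated cells. The changes were small, and more of them were upward. Of 31 members tested, 2 were called changed, both higher, where 4.68% of all 15904 genes tested were called, 3.06% as higher and 1.62% as lower, and 65.4% of calls were upward (54.3% with quantile normalization). By adjusted p alone, 17 members rose and 7 fell, where 59.1% of all genes passed, 29.5% as higher and 29.5% as lower. The median log2 fold change was 0.19 over the members and 0.00 over all genes. Among fibrillar chains 6 of 9 rose and 1 fell, among type IV chains 1 of 5 rose and 2 fell, and among other chains 10 of 17 rose and 4 fell.

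Type I chains rose after Rbpms knockdown. Col1a1 read 21176, 21090 and 19893 CPM in RBPMS KD1, above every D1 library (log2 fold change 0.51, SE 0.027, adjusted p = 1.1e-15). Col1a2 read 10706, 10751 and 10216 CPM, also above every D1 library (log2 fold change 0.36, SE 0.026, adjusted p = 1.1e-12). Col3a1 read 26341, 25559 and 24211 CPM (log2 fold change 0.13, SE 0.028, adjusted p = 0.00012), a rise that was lost with quantile normalization. Col5a3 (log2 fold change 0.56), Col11a2 (0.55) and Col27a1 (0.38) rose and Col5a2 (-0.22) fell, while Col5a1 (-0.03, adjusted p = 0.36) and Col11a1 (-0.06, adjusted p = 0.082) did not pass. Col11a1 passed as lower with a replicate block (adjusted p = 0.04), with no filter on low counts (0.023) and without D1 replicate 1 (-0.09, adjusted p = 0.011), and its sign turned with quantile normalization (0.02, adjusted p = 0.5).

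The type IV chains that were low in P stayed near their D1 level after Rbpms knockdown. Col4a1 read 1107, 1092 and 1077 CPM (log2 fold change -0.10, SE 0.025, adjusted p = 0.0017) and Col4a2 1170, 1125 and 1082 CPM (log2 fold change 0.10, SE 0.027, adjusted p = 0.002). Col4a5 (log2 fold change -0.06, adjusted p = 0.038) fell, and Col4a6 (0.05, adjusted p = 0.093) and Col4a3 (0.40, adjusted p = 0.14) did not pass. With quantile normalization the fall of Col4a5 was lost (0.01, adjusted p = 0.79) and Col4a6 passed as higher (0.09, adjusted p = 0.0088). The Col4a5 fall was also lost without D1 replicate 2 or 3 and without RBPMS KD1 replicate 2 or 3 (adjusted p = 0.17, 0.092, 0.1 and 0.095), and Col4a3 passed without D1 replicate 2 (0.70, adjusted p = 0.018).

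In the other classes, all 3 type VI chains tested rose. Col6a1 read 1209, 1193 and 1168 CPM in RBPMS KD1 (log2 fold change 0.46, SE 0.024), Col6a2 1089, 1086 and 1046 CPM (0.36, SE 0.025) and Col6a3 13.9, 12.9 and 13.4 CPM (0.62, SE 0.059), each above all D1 libraries. Both multiplexins rose, Col15a1 to 196, 200 and 199 CPM (log2 fold change 0.64, SE 0.026) and Col18a1 to 897, 877 and 865 CPM (0.60, SE 0.024). Col16a1 rose by 0.44 on the log2 scale and Col12a1 fell by 0.47 on it, to 1006, 973 and 981 CPM. Col14a1, at 1033, 1034 and 1012 CPM, fell by 0.07 on the log2 scale (SE 0.024, adjusted p = 0.0086). The members called were both under 1 CPM. Col8a2 had 6, 14 and 14 counts in D1 and 24, 28 and 32 in RBPMS KD1 (log2 fold change 1.27, SE 0.4, adjusted p = 0.008), and Col17a1, a transmembrane collagen of epithelial hemidesmosomes, had 33, 39 and 41 counts in D1 and 73, 80 and 84 in RBPMS KD1 (1.04, SE 0.24, adjusted p = 0.00038). Both calls were lost without D1 replicate 1 (0.97 and 0.95). Markers of other cells moved as well. The fibroblast markers summed to 134 to 141 CPM in RBPMS KD1, with Lum lower (log2 fold change -0.38) and Pdgfra (0.91), Dcn (0.70) and Dpt (0.67) higher by adjusted p, while Pi16 did not pass and Cd34 stayed at or under 3 counts. The endothelial markers summed to 1.82 to 1.84 CPM, above D1, with Tek (log2 fold change 1.32) and Vwf (1.22) called higher and Cdh5 and Kdr at or under 3 counts. The chondrocyte markers summed to 14.6 to 16.1 CPM, against 11.6 to 14.0 CPM in D1, with Comp higher (log2 fold change 0.83) and Matn3 lower (-0.33) by adjusted p, while Acan and Sox9 did not pass. The epithelial markers summed to 38.8 to 41.4 CPM, against 35.5 to 37.3 CPM in D1, with Krt8 higher by adjusted p (0.14), and the part of other cells in the collagen values was not tested.

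The comparison of MBNL KD with D1 asks the same of Mbnl1 and Mbnl2. Again most members moved little, but Col8a1, Col15a1, Col4a3 and Col17a1 were called higher. These were 4 of 31 members tested, where 10.2% of all 16053 genes tested were called, 6.1% as higher and 4.14% as lower. By adjusted p alone, 14 members rose and 9 fell, where 67.5% of all genes passed, 33.8% as higher and 33.7% as lower. The median log2 fold change was -0.03 over the members and 0.01 over all genes. All 9 fibrillar chains tested passed by adjusted p, 6 as higher and 3 as lower, and none passed the fold threshold. Of the type IV chains, 2 of 5 rose and 2 fell, and of the other chains 6 of 17 rose and 4 fell.

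Chains of type V and XI rose together in MBNL KD, except Col11a2. Col5a1 read 3237, 3190 and 3134 CPM (log2 fold change 0.55, SE 0.019, adjusted p = 1e-20), Col5a2 1725, 1729 and 1706 CPM (0.28, SE 0.02) and Col5a3 83.8, 77.9 and 74.5 CPM (0.45, SE 0.034). Col11a1 read 1930, 1915 and 1839 CPM (log2 fold change 0.58, SE 0.026, adjusted p = 3.4e-18), while Col11a2 fell to 2.28, 3.29 and 3.08 CPM (-0.71, SE 0.11, adjusted p = 2.6e-06). Col27a1 rose by 0.61. The type I chains split. Col1a1 fell to 12933, 12927 and 13293 CPM (log2 fold change -0.15, SE 0.015, adjusted p = 4.4e-10) and Col1a2 rose to 11614, 11380 and 11415 CPM (0.48, SE 0.015, adjusted p = 6.4e-22). Col3a1, at 21038, 20482 and 20497 CPM, fell by 0.16 on the log2 scale, a fall that was lost with quantile normalization.

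Among type IV chains, Col4a3 read 3.91, 3.24 and 3.96 CPM in MBNL KD, above every D1 library (log2 fold change 2.33, SE 0.17, adjusted p = 2.9e-13). Its pair partner Col4a4 had 7, 5 and 4 counts and was not tested in this comparison. Col4a1 rose by 0.11 and Col4a2 did not pass (log2 fold change -0.03, adjusted p = 0.26), Col4a5 fell by 0.07 (adjusted p = 0.025) and Col4a6 fell by 0.39, to 140, 137 and 136 CPM. With quantile normalization Col4a5 turned to a rise (0.05, adjusted p = 0.043) and Col4a2 passed as higher (0.06, adjusted p = 0.013). The Col4a5 fall was also lost without D1 replicate 2 or 3 and without MBNL KD replicate 3 (adjusted p = 0.063, 0.055 and 0.11).

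Of the other classes, Col15a1 rose to 317, 309 and 310 CPM (log2 fold change 1.30, SE 0.026, adjusted p = 7.5e-27) and Col8a1 to 579, 595 and 591 CPM (1.07, SE 0.03, adjusted p = 2.8e-23), at 246% and 210% of the D1 mean. Col17a1 had 300, 262 and 251 counts against 33, 39 and 41 in D1 (log2 fold change 2.85, SE 0.16, adjusted p = 1.7e-15). Col18a1 rose by 0.69, to 938, 940 and 929 CPM, and Col16a1 by 0.40. Col14a1 fell to 687, 664 and 661 CPM (log2 fold change -0.69, SE 0.023) and Col12a1 by 0.27. In type VI, Col6a2 fell by 0.19, which was lost with limma on the authors' normalised values (-0.06, adjusted p = 0.063), Col6a3 rose by 0.25 and Col6a1 did not pass (log2 fold change -0.04, adjusted p = 0.13), but passed as higher with quantile normalization (0.07, adjusted p = 0.0057) and as lower without D1 replicate 2 or MBNL KD replicate 1 (both -0.06, adjusted p = 0.028 and 0.038). The chondrocyte markers summed to 23.2 to 23.7 CPM in MBNL KD, against 11.6 to 14.0 CPM in D1. All 4 tested were higher by adjusted p, namely Acan (log2 fold change 0.92), Sox9 (0.68), Matn3 (0.44) and Comp (1.26), of which Comp was called. The fibroblast markers summed to 95.8 to 102 CPM, with Dcn and Dpt called lower. Of the 5 fibroblast markers tested, 3 were lower and 1 was higher by adjusted p, and 1 did not pass. The epithelial markers summed to 53.7 to 54.6 CPM, against 35.5 to 37.3 CPM in D1, with Krt8 higher by adjusted p (log2 fold change 0.58, adjusted p = 1.8e-15) and Epcam, Cdh1 and Krt19 at or under 3 counts. The leukocyte markers summed to 1.43 to 1.54 CPM, with Csf1r called higher (log2 fold change 1.30) and Ptprc at or under 3 counts, and the endothelial markers to 0.937 to 1.41 CPM, with neither tested marker passing. The part of other cells in the collagen values, Col17a1 included, was not tested.

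The knockdowns share their controls, so the difference between them was tested directly on their own 6 libraries. Of 31 members tested, 4 were called, where 11.9% of all 16111 genes tested were called, 6.03% as higher in RBPMS KD1 and 5.88% as higher in MBNL KD. Col11a2 (log2 difference of RBPMS KD1 over MBNL KD 1.27, SE 0.11, adjusted p = 5.8e-12) and Col10a1 (1.00, SE 0.26, adjusted p = 0.0012) were higher in RBPMS KD1, and Col4a3 (-1.93, SE 0.14, adjusted p = 1.1e-13) and Col17a1 (-1.80, SE 0.14, adjusted p = 1.9e-12) were higher in MBNL KD. The Col10a1 call stood at the fold threshold and was lost without RBPMS KD1 replicate 3 (0.90) and without MBNL KD replicates 2 (0.93) or 3 (0.87). It was also lost in 1 fit of all 12 libraries, where it lay just inside the fold threshold, and with limma on the authors' normalised values (0.65). By adjusted p alone, 11 members were higher in RBPMS KD1 and 12 in MBNL KD, where 69.5% of all genes passed, 34.5% and 35.1% in the same order. In 6 members both knockdowns had also passed against D1 in opposite directions, or 19.4% of the 31 tested in all 3 comparisons, where 17.7% of the 15593 genes tested there met the same conditions. Below the fold threshold the knockdowns still separated for abundant chains. Col1a1 was higher in RBPMS KD1 by 0.67 (SE 0.017, adjusted p = 2.1e-24) and Col14a1 by 0.62 (SE 0.024), and Col6a1 and Col6a2 by 0.51 and 0.55. Col11a1 (-0.63), Col5a1 (-0.57), Col8a1 (-0.88) and Col15a1 (-0.65) were higher in MBNL KD. Col4a5 did not pass (0.01, 95% interval -0.04 to 0.06, adjusted p = 0.75), but passed as higher in MBNL KD with quantile normalization (-0.06, adjusted p = 0.023).

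Ratios between chains that enter the same trimer do not depend on a scaling factor of the library. Such ratios were taken from the counts of each library, not per length, so that they show shifts between groups and not the proportion of chains. Col1a1 to Col1a2 stood at 1.77, 1.77 and 1.75 in D1 and at 2.67, 2.92 and 2.95 in P. It stood at 1.98, 1.96 and 1.95 in RBPMS KD1 and at 1.11, 1.14 and 1.16 in MBNL KD, so that the 4 groups did not overlap. The change against D1 was 1.61-fold upward in P, 1.11-fold upward in RBPMS KD1 and 1.55-fold downward in MBNL KD. Col6a1 to Col6a2 stood at 1.03, 1.02 and 1.04 in D1 and at 0.482, 0.465 and 0.471 in P, a 2.18-fold lower ratio. It was 1.11 in RBPMS KD1 and 1.14 in MBNL KD (geometric means).

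The divergent pair Col4a1 to Col4a2 kept its ratio within 1.15-fold of D1 in every group, with geometric means of 1.11 in D1, 0.991 in P, 0.971 in RBPMS KD1 and 1.23 in MBNL KD. Col5a1 to Col5a2 was 1.54 in D1 and 1.87, 1.76 and 1.85 in P, RBPMS KD1 and MBNL KD. Col8a1 to Col8a2 was 2304 in D1 and 39.0 in P, with few Col8a2 counts behind the D1 value. Its change in P was -5.88 on the log2 scale, and -3.58 with the authors' normalised values. The two-sided exact permutation test gave p = 0.1 for 14 of the 15 changes against D1, the smallest that 3 against 3 libraries allow (0.107 after Benjamini-Hochberg adjustment over the 15), and p = 0.7 for Col8a1 to Col8a2 in MBNL KD. The Col8a1 to Col8a2 change in RBPMS KD1 was -1.19 on the log2 scale, -0.76 without D1 replicate 1, and -0.21 with the authors' normalised values (exact permutation p = 0.3). In MBNL KD it was 0.25, -0.01 without D1 replicate 2 and 0.07 without D1 replicate 3, and with the authors' normalised values 0.96 (exact permutation p = 0.1). With the authors' normalised values the Col1a1 to Col1a2 change shrank to 0.16 from 0.69 on the log2 scale in P and turned to -0.16 from 0.15 in RBPMS KD1. Chosen after the values were seen, and given without a test, Col1a1 to Col3a1 went from 0.627 in D1 to 2.24 in P, 0.817 in RBPMS KD1 and 0.631 in MBNL KD. Likewise, Col4a5 to Col4a6 was 3.66 in D1, 4.25 in P, 3.38 in RBPMS KD1 and 4.57 in MBNL KD.

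**Figure D5:**
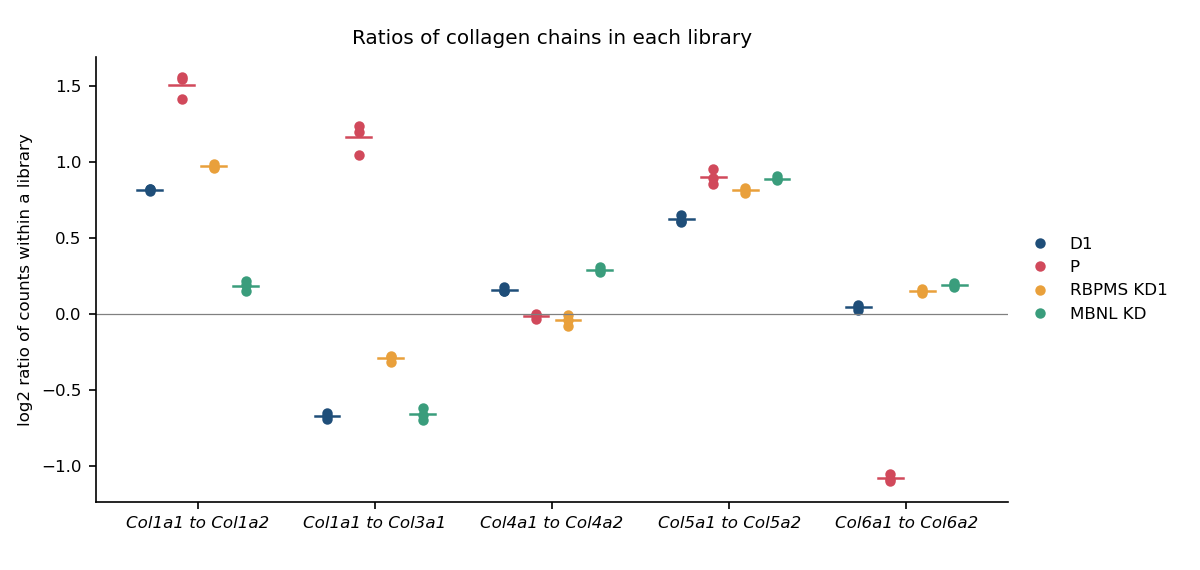
Points give the log2 ratio of counts of 2 collagen genes within each library, and short lines give means of 3 libraries, for the 4 groups. Col1a1 to Col1a2 is highest in P (mean 1.51) and lowest in MBNL KD (0.19), and Col6a1 to Col6a2 lies at -1.08 in P and between 0.04 and 0.19 in the other groups.

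Among genes that process collagen, the lysyl hydroxylase gene Plod2 was called lower in P and in RBPMS KD1 and Fkbp10 in MBNL KD. Of 50 genes listed for hydroxylation, folding, cleavage, cross-linking, receptors and breakdown, 48 were in the count table. In P, 14 of 43 tested were called (32.6%), 8 higher and 6 lower, where 27.6% of all genes were called. The median log2 fold change was -0.20 over these 43 genes and 0.02 over all genes. Among the hydroxylases, Plod2, the lysyl hydroxylase of telopeptides, fell from 2897 to 1092 CPM (log2 fold change -1.41, SE 0.023), while Plod1, which acts on the helix, rose from 265 to 589 CPM (1.15, SE 0.024). P4ha2 (log2 fold change 1.49) and P4ha3 (1.63), subunits of prolyl 4-hydroxylases that stabilize the helix, rose too. Of the 5 lysyl oxidases, which cross-link fibrils, Loxl1 (-1.10) was called lower and Loxl4 (2.54) higher. The procollagen N-proteinases Adamts3 (4.61) and Adamts14 (2.56) were called higher, at 8.43 and 5.53 CPM in P. The collagen-binding integrin chains Itga1 (-2.63) and Itga10 (-2.35) and the collagen mRNA-binding protein gene Larp6 (-1.75) were called lower, and the glycosyltransferase gene Colgalt2 (3.39) and the gelatinase gene Mmp2 (1.10) higher.

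In RBPMS KD1, 6 of 44 processing genes tested were called (13.6%), 4 higher and 2 lower, where 4.68% of all genes were called. Mmp2 rose from 14.6 to 69.9 CPM (log2 fold change 2.26, SE 0.044), P4ha2 from 126 to 292 CPM (1.22, SE 0.028), and Plod2 fell from 2897 to 1346 CPM (-1.10, SE 0.025). In MBNL KD, 6 of 44 were called (13.6%), 4 higher and 2 lower, where 10.2% of all genes were called. Fkbp10, a prolyl isomerase that folds procollagen, fell from 421 to 176 CPM (log2 fold change -1.26, SE 0.027) and Adamts2, the main procollagen N-proteinase, from 373 to 161 CPM (-1.21, SE 0.026). Loxl4 (log2 fold change 2.11), the collagen-binding integrin chain Itga2 (2.63) and Adamts14 (1.02) were called higher. Itga2 read 4.02 CPM in D1 and 24.8 CPM in MBNL KD.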

How the data were processed

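Poly(A) RNA of 12 siRNA-treated PAC1 libraries was sequenced as read pairs, and the study's methods describe each condition as repeated in biological replicates. The authors subsampled reads with seqtk, aligned them with STAR 2.7.11b to mRatBN7.2 and deposited counts per gene symbol from featureCounts with the RefSeq annotation. Strand setting and counting of mates are not given in the sources used here. Library totals lie above the read depth that the authors state after subsampling. Many low counts are even, such as 10, 22 and 20 for Col25a1 in P. If both mates of a pair were counted, counts are not independent and the limit of 3 counts is too low, which was not tested. The second table that the authors deposited holds signal values, made from the counts by noisyR and quantile normalization, for 19812 genes and 39 of the 44 members, with a smallest value of 35. It served alternatives and the rank values.

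Groups came from the sample labels. For each comparison, the 6 libraries were fitted in R 4.3.3 with edgeR 4.0.16 (filterByExpr, TMM, quasi-likelihood F test), with Benjamini-Hochberg adjustment over all genes tested, an adjusted p under 0.05 and, for a call, an absolute log2 fold change above 1. SEs were derived from the fold change and its F statistic. Replicate numbers were not used as a block, since no pairing is described. The fits were tested on simulated counts with known changes. The 95% intervals of fold changes come from these SEs and so hold the spread between libraries, whereas the limit of 3 counts covers counting error only. Precision rests on 3 libraries per group. Python 3.11.15 with scipy 1.17.1 gave shares, ratios and exact permutation tests.

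Members, classes, gene lists and the rule for named genes were chosen with earlier results of these data known. The rule took all fibrillar and type IV members, every other member called in a comparison with D1, and processing genes called there whose higher group averaged at least 100 scaled counts. Alternatives were DESeq2 size factors, quantile normalization, other filters, DESeq2 1.42.0, limma 3.58.1 on the log2 of the authors' normalised values, a joint fit of all libraries, a replicate block, other thresholds and leaving out each library. Promoter windows came from RefSeq on GRCr8, for 35 of 44 members matched by symbol; Col1a1, Col2a1, Col3a1, Col6a2, Col9a3, Col12a1, Col14a1, Col22a1 and Col25a1 had none. These windows were the only genome sequence used, and transcript lengths were not used.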

Additional observations from a re-analysis of the deposited data

Results flagged for a closer look

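In 6 collagen genes both knockdowns passed the test against D1 in opposite directions, and the direct test between the knockdowns also passed. They are 19.4% of the 31 members tested in all 3 comparisons, where 17.7% of the 15593 genes tested there met the same conditions, so the share lies near that of all genes. Values are log2 differences with edgeR's adjusted p. Col11a2, a chain of type XI collagen, was 0.55 in RBPMS KD1 and -0.71 in MBNL KD, and the knockdowns differed by 1.27 (adjusted p = 5.8e-12). Col1a1, of type I collagen, was 0.51 and -0.15, with a difference of 0.67 (adjusted p = 2.1e-24). Col6a2, of type VI collagen, was 0.36 and -0.19, with a difference of 0.55 (adjusted p = 6.6e-18). Col3a1, of type III collagen, was 0.13 and -0.16, with a difference of 0.30 (adjusted p = 1.6e-15). Col5a2, of type V collagen, was -0.22 and 0.28, with a difference of -0.50 (adjusted p = 2.2e-18). Col4a1, of type IV collagen, was -0.10 and 0.11, with a difference of -0.20 (adjusted p = 4.5e-09). All 3 RBPMS KD1 libraries lay on one side of all 3 MBNL KD libraries in each of the 6 genes. With quantile normalization the differences of Col3a1 were lost (0.00 in all 3 comparisons), and with limma on the authors' normalised values the fall of Col6a2 in MBNL KD was lost too (-0.06, adjusted p = 0.063). Of the 6, Col11a2 alone passed the fold threshold between the knockdowns.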

How the results depend on the processing

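For the 112 member results named, 1517 of 1559 alternative values kept their direction and their side of the call thresholds, 21 were no longer called and 21 changed sign. By adjusted p alone, quantile normalization lost 8, gained 7 and turned 2 of these results, and limma on the normalised values lost 11, gained 5 and turned 1. The number of members called in P (20) became 13 when 10 counts were required in every library, since Col6a1 (-0.98) was then inside the fold threshold and Col4a4, Col6a6, Col8a2, Col19a1, Col22a1 and Col25a1 did not pass this filter, where the share of all genes called went from 27.6% to 20.1%. It became 14 with limma on the normalised values (15.8% of all genes), without Col3a1 (-0.77), Col6a1 (-0.82), Col6a6 (0.82), Col10a1 (0.45), Col22a1 (0.87) and Col25a1, and was 19 to 20 when single libraries were left out. In RBPMS KD1 the 2 calls became 24 with no fold threshold, 1 with quantile normalization, 1 with 10 counts in every library and 0 with limma on the normalised values, where the share of all genes called went from 4.68% to 59.1%, 4.4%, 3.46% and 1.05%. Leaving out single libraries gave 0 to 2, the 0 without D1 replicate 1. In MBNL KD the 4 calls became 23 with no fold threshold (67.5% of all genes), and 4 to 4 were called without single libraries. Between the knockdowns the 4 calls became 23 with no fold threshold (69.5% of all genes), 3 in 1 fit of all 12 libraries (11.8% of all genes) and 3 with limma on the normalised values (5.3% of all genes), both without Col10a1, and 3 to 4 without single libraries.

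Sign changes came with quantile normalization and with limma on the normalised values, given here in that order as log2 fold changes. In P they were 0.47 and 0.50 for Col5a1, 0.42 and 0.42 for Col1a2, and 0.04 and 0.04 for Col5a2. In RBPMS KD1 they were 0.02 and 0.02 for Col11a1 and 0.01 and 0.01 for Col4a5. In MBNL KD they were 0.06 and 0.05 for Col4a2, 0.07 and 0.07 for Col6a1, and 0.05 and 0.06 for Col4a5, and between the knockdowns -0.06 and -0.06 for Col4a5. Col15a1 in P ranged from -0.04 to 0.06 without single libraries. Quantile normalization moved the share of higher calls among all genes from 59.4% to 45.8% in P, where 18 members (7 higher and 11 lower) and 29.3% of all genes were called, with Col3a1, Col6a1 and Col10a1 lost and Col9a2 gained, and from 65.4% to 54.3% in RBPMS KD1. Why these values differ by scale was not tested beyond the ranks given for the leading chains.

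The collagen share of all values was 5.6% in D1, 5.21% in P, 6.18% in RBPMS KD1 and 5.87% in MBNL KD in the normalised table, and 5.92% in D1 and 4.04% in P with TMM-scaled counts. With Col7a1, Col15a1 and Col18a1 counted as basement membrane, that class took 6.37%, 2.42%, 5.86% and 7.11% of collagen counts and the other class 7.66%, 5.31%, 6.73% and 6.75%, in the order D1, P, RBPMS KD1 and MBNL KD. Log2 changes of chain ratios with the normalised values were, in P, 0.16 for Col1a1 to Col1a2, -0.19 for Col4a1 to Col4a2, 0.46 for Col5a1 to Col5a2, -1.3 for Col6a1 to Col6a2 and -3.58 for Col8a1 to Col8a2. In RBPMS KD1 they were -0.16, -0.24, 0.11, 0.14 and -0.21 in the same order, and in MBNL KD 0.06 for Col4a1 to Col4a2, 0.18 for Col5a1 to Col5a2 and 0.96 for Col8a1 to Col8a2, against 0.25 with counts.

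With a replicate block the counts of members called were 20 in P, 2 in RBPMS KD1, 4 in MBNL KD and 4 between the knockdowns, and each of the 116 results fitted kept its direction and its side of the call thresholds. By adjusted p alone Col11a1 in RBPMS KD1 passed with the block (-0.06, adjusted p = 0.04). Deviations of same-numbered libraries correlated at -0.018 to 0.058, so the numbers were not taken as pairs. For the chain ratios a replicate block was added after seeing the data as differences between same-numbered libraries. They went one way in all 3 pairs for 14 of the 15 changes, with an exact sign-flip p = 0.25, the smallest that 3 pairs allow, and p = 0.75 for Col8a1 to Col8a2 in MBNL KD. Shares carry no test, paired or not. Counts per coding length were not run, since no lengths were at hand. Depth limits the members under 1 CPM, where single counts move a fold.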

Other observations

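Among members too low to test, Col24a1, a fibrillar chain, had 10, 10 and 9 counts in RBPMS KD1, 6, 2 and 2 in D1, 4, 2 and 2 in P and 4, 5 and 4 in MBNL KD. Col23a1, a transmembrane collagen, had 14, 4 and 8 counts in P, 2, 0 and 3 in D1, 2, 6 and 2 in RBPMS KD1 and 1, 0 and 0 in MBNL KD. Col2a1 had 2, 12 and 8 counts in D1, 2, 6 and 8 in P, 0, 3 and 4 in RBPMS KD1 and 0, 4 and 2 in MBNL KD. The ratio of Col6a3 to Col6a1 counts, chosen after its values were seen and given without a test, was 0.0101 in D1, 0.671 in P, 0.0112 in RBPMS KD1 and 0.0124 in MBNL KD.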
